A study of Caenorhabditis elegans with 2 samples.

Results

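The genes *fos-1* and *jun-1* encode the Fos and Jun proteins of the nematode *Caenorhabditis elegans*, and they are described here by the binding of another transcription factor, ATF-7, around them. They were taken by name from the Ensembl annotation of the WBcel235 genome and are 2 of its 19973 protein-coding genes. The assay was ChIP-seq, in which DNA bound by a protein is precipitated with an antibody and sequenced, and it was done on whole worms of strain OP638, young adults of mixed sex grown from starved L1 larvae. The worms had the genotype unc-119(tm4063) III; wgIs638, a single transgenic line that stably expresses ATF-7 with a GFP-FLAG tag at its C terminus. The labels give the antibody as anti-GFP in their description and as atf-7 in the antibody field. There was 1 group with 2 biological replicates from separate biosamples, numbered 2 and 3 in the labels. No second strain, stage or treatment was included, so every comparison below sets *fos-1* or *jun-1* against the rest of the genome, or replicate 2 against replicate 3, as a description without a test.

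Fos and Jun are basic leucine zipper (bZIP) proteins that bind DNA as a dimer known as AP-1. In *C. elegans*, FOS-1 acts in the anchor cell of the gonad, which breaches the basement membranes between the uterus and the vulva, and FOS-1 and JUN-1 together act in the spermatheca, where the phospholipase gene *plc-1* is needed for ovulation. AP-1 dimers prefer the AP-1 site TGACTCA, while dimers of the ATF and CREB family prefer the cyclic-AMP response element (CRE) TGACGTCA, which has an additional base in its centre. In mammals, Jun proteins can also pair with members of the ATF family.

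ATF-7 had peaks around both genes, in different patterns. Around *fos-1* it had 1 peak, one of the strongest in the genome, far upstream of the gene and near a CRE. At *jun-1* it had 4 weaker peaks spread over the promoter and introns, none of them with a CRE. These are the peaks in the authors' list of 2247 peaks that passed their threshold on the irreproducible discovery rate (IDR) between the replicates, and a peak was counted for a gene when its summit lay from 10 kb upstream of the gene's 5′ end to the gene end. An IDR summit lay in this span for both genes, as for 22.2% of all protein-coding genes. A CRE lay within 100 bp of the summit of 9.79% of IDR peaks, so 0 of 4 at *jun-1* is near the background. Since whole worms were used, strong binding in few cells and weak binding in many cells cannot be told apart.

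The sequence around the *fos-1* summit is shown because it holds the only CRE within the 22.49 kb searched at that gene. It covers chrV:6000374-6000574 of build ce11 (WBcel235), plus strand, 100 bases to each side of the summit, and the capitals mark the CRE.
fos-1 peak: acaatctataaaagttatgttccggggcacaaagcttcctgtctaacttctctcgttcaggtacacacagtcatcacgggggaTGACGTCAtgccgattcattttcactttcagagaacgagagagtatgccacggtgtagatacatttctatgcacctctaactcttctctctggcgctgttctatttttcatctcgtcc

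The 4 *jun-1* summits are shown in the same way, and none of them has a CRE within these bases. They lie at chrII:9112951-9113151, chrII:9113886-9114086, chrII:9117949-9118149 and chrII:9128211-9128411 of the same build, plus strand. Capitals mark the partial CRE ACGTCA, the E-box CACGTG, the GA repeat GAGAGAGA, the GATA site TGATAA and the word ACGCAG, each on either strand.
jun-1 peak 1: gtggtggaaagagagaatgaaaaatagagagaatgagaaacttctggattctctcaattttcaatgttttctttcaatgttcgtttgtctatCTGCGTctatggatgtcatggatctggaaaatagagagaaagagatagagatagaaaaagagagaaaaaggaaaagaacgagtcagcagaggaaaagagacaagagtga
jun-1 peak 2: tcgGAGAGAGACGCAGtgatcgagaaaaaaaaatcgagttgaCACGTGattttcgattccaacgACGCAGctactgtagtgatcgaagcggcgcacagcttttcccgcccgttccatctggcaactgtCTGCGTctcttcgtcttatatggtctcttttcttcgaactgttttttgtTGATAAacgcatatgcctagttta
jun-1 peak 3: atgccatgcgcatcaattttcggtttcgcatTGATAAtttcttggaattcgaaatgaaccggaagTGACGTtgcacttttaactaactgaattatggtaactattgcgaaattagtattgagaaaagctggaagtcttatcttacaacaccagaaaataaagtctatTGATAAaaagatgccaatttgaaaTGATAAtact
jun-1 peak 4: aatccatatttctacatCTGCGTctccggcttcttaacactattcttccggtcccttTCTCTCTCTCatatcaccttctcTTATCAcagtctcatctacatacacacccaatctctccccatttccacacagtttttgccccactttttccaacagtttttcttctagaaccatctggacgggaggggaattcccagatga

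The gene *fos-1* (WBGene00001345) lies on the plus strand of chromosome V at 6003601 to 6016087 and has 6 transcripts with 6 different 5′ ends, spread over its first 7610 bp. Its IDR peak spanned 551 bp, chrV:6000220-6000770, with the summit at 6000474 in intergenic sequence. The summit was 3127 bp upstream of the 5′ end of the first transcript, F29G9.4a.1, which was the nearest 5′ end of any protein-coding gene. The upstream neighbour *cpg-4*, a chondroitin proteoglycan gene, ends 1130 bp before the summit. The fucosyltransferase gene *fut-8*, which is transcribed away from *fos-1*, starts 9991 bp from it, so the peak also counts for the span searched at *fut-8*. A position alone does not assign the peak to one of these genes. A non-coding RNA gene on the minus strand, C10F3.15 (V:6000346-6000492), covers the summit, which lies 18 bp inside its 5′ end. Promoters were taken to run from 1000 bp before a transcript's 5′ end to 200 bp after it, for protein-coding transcripts only, and the peak was outside those of *fos-1*.

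The signal of the *fos-1* peak, the authors' own value per peak, was 1529.25 for the pooled reads, 574.984 for replicate 2 and 955.441 for replicate 3. It ranked 2 of 2247 in the IDR list, 1 of 28126 in the relaxed list of replicate 2 and 2 of 30000 in that of replicate 3. The peak was thus at the top of both replicates. The signal was 10.29 times the median of the IDR list (148.6), which holds only peaks that passed the threshold. It was 39.09 times the median of the relaxed pooled list, 28.3 times that of the replicate 2 list and 36.53 times that of the replicate 3 list. Signal levels are not comparable between the pooled reads and the replicates, which is why ranks are given beside them. In the IDR and relaxed pooled lists the peak had the same signal. The summit in replicate 2 was on the same base as in the pooled reads, and the summit in replicate 3 was 6 bp away. Of the 2247 IDR peaks, 1144 were outside all promoters of protein-coding transcripts, and the *fos-1* peak had the highest signal among them, ahead of 1046.53 for the next. Only 5 protein-coding genes had an IDR peak of higher signal in their own span.

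**Figure D1:**
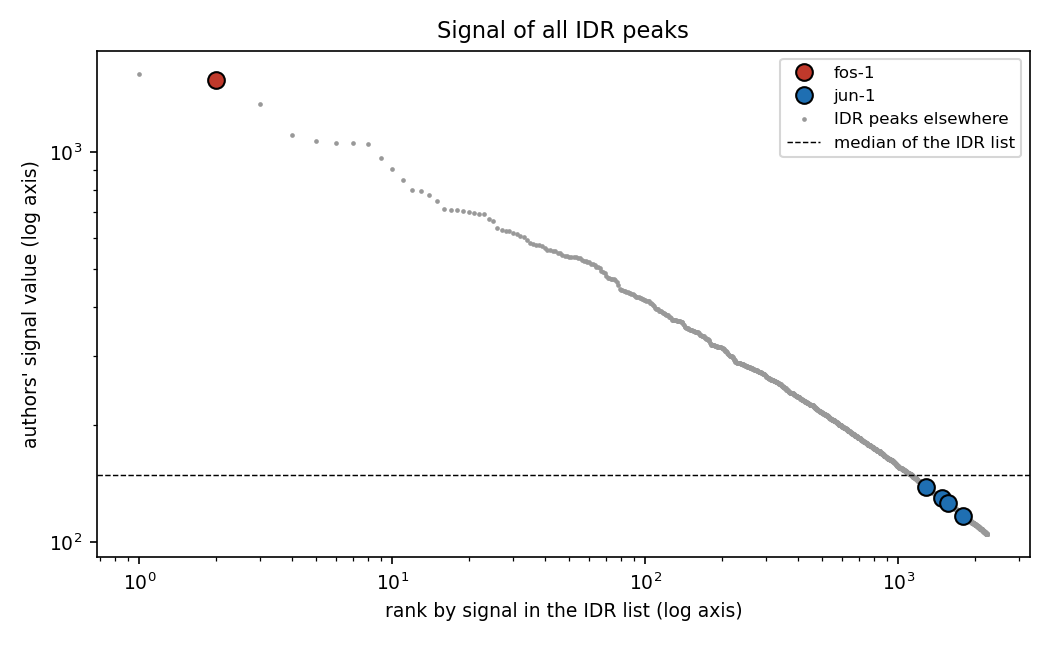
Signal (vertical, log axis) of all 2247 IDR peaks against their rank (horizontal, log axis), with the *fos-1* peak in red and the *jun-1* peaks in blue, and the list's median as a dashed line. The *fos-1* peak is at rank 2, and the 4 *jun-1* peaks sit below the median of 148.6.

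The CRE of the *fos-1* peak lies at V:6000457-6000464, with its centre 13.5 bp from the summit. A CRE was found within 100 bp of the summit of 220 IDR peaks (9.79%), of 4.79% of the 30000 relaxed pooled peaks and of 1.01% of windows of the same length at the 5′ ends of protein-coding transcripts. Among the 220 IDR peaks with a CRE, the *fos-1* peak had the highest signal, the next being 1063.95 and the median 168.6. Its CRE was nearer to the summit than the median of these peaks, 22.5 bp, and 99 of the 220 (45.0%) had a CRE centre within 20 bp. No AP-1 site, E-box, GA repeat, GATA site or ACGCAG word was found within 100 bp of the *fos-1* summit. When the whole peak was searched, it also held 1 or more AP-1, E-box and GATA sites.

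The gene *jun-1* (WBGene00012005) lies on the plus strand of chromosome II at 9113157 to 9132231 and has 9 transcripts with 9 different 5′ ends, the last of them 17602 bp into the gene. A span with 4 or more IDR summits, as at *jun-1*, was found at 95 genes (0.476%). The span searched at *jun-1* was 29.07 kb long, and these counts are not corrected for its length. It also holds all or part of *dnj-23*, C16D2.1, T24H10.4, T24H10.5 and *dyrb-1*, but *jun-1* had the nearest protein-coding 5′ end for all 4 summits.

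Peak 1 of *jun-1*, at chrII:9112833-9113268, had its summit 106 bp upstream of the first 5′ end, that of T24H10.7a.1, in intergenic sequence. A non-coding RNA gene on the minus strand, T24H10.11 (II:9112813-9112958), starts 93 bp from it. Its signal was 116.525 in the pooled reads (rank 1804 of the IDR list), 36.52 in replicate 2 (rank 3426) and 80.6298 in replicate 3 (rank 1612). It was the weakest of the *jun-1* IDR peaks in the pooled reads, and also the one nearest to a 5′ end.

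Peak 2, at chrII:9113768-9114203, had its summit in an intron, 829 bp downstream of the first 5′ end and outside the promoters. Its signal was 138.521 in the pooled reads (rank 1288), 36.6121 in replicate 2 (rank 3412) and 102.794 in replicate 3 (rank 980). This was the strongest *jun-1* peak in the pooled reads and in replicate 3, but not in replicate 2.

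Peak 3, at chrII:9117831-9118266, had its summit in an intron of the long transcripts, 374 bp upstream of the 5′ end of T24H10.7f.1. Its signal was 129.301 in the pooled reads (rank 1488) and 63.6419 in replicate 2 (rank 944), where it was the strongest peak of the gene. The nearest summit in replicate 3 was 114 bp away, beyond the 100 bp taken here as the same summit, with a signal of 61.2023 (rank 2720). Both replicates had a summit within 100 bp for 93.1% of the IDR peaks, so peak 3 was in the minority that did not.

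Peak 4, at chrII:9128093-9128528, had its summit 15154 bp into the gene, in an intron, with the 5′ end of T24H10.7d.1 974 bp before it. Its signal was 125.814 in the pooled reads (rank 1570), 47.1841 in replicate 2 (rank 1872) and 88.4712 in replicate 3 (rank 1352). The 4 *jun-1* peaks thus spanned a narrow range of pooled signal, 116.5 to 138.5, in the weaker part of the IDR list, and their order was not the same in the replicates. The *fos-1* peak was 1529.25 in the same list.

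**Figure D2:**
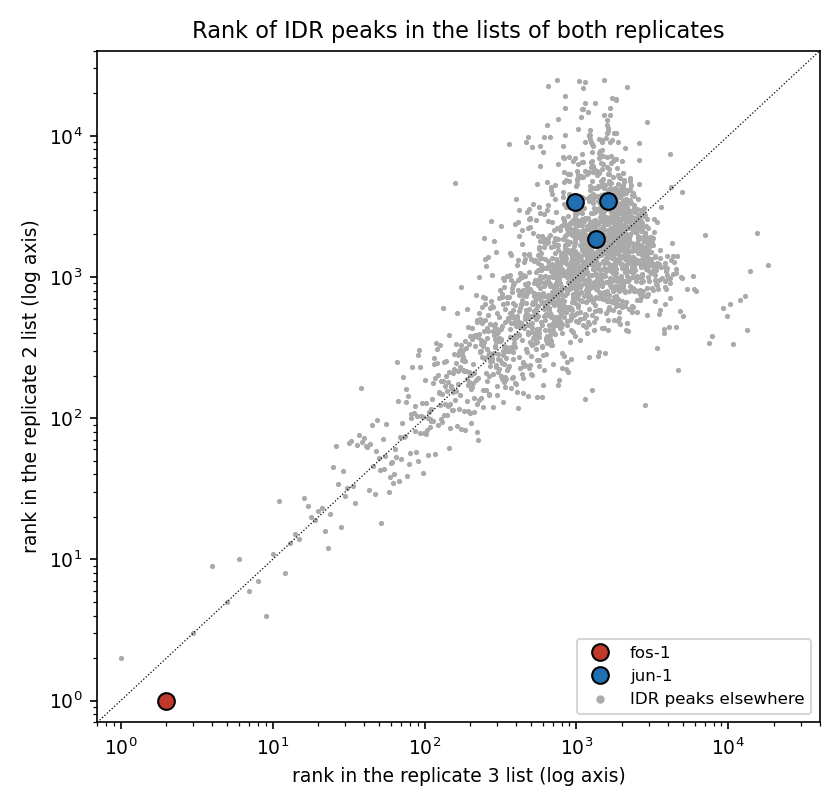
Rank of each IDR peak in the relaxed list of replicate 3 (horizontal) and replicate 2 (vertical), both on log axes, for the 2092 IDR peaks with a summit of both replicates within 100 bp, and equal ranks as a dotted line. The *fos-1* peak is at rank 2 and 1, and the 3 *jun-1* peaks that can be plotted rank lower in replicate 2 (1872 to 3426) than in replicate 3 (980 to 1612).

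The *jun-1* summits held some motifs that the *fos-1* summit lacked, while the partial CRE and the CREB core were found at both genes, at *fos-1* inside its CRE. Within 100 bp, none of the 4 had a CRE, against 9.79% of all IDR peaks, and none had an AP-1 site, against 2.63%. At shares this low, 0 of 4 is near the background for either site. Peak 3 was the only one with the partial CRE, its centre 32.5 bp from the summit, and with the shorter CREB core TGACG that lies within it. The partial CRE was found in 21.1% of IDR peaks and in 6.90% of windows at 5′ ends, and the CREB core in 40.4% of IDR peaks. GATA sites were in 3 of the 4 peaks, against 28% of all IDR peaks, with 3 such sites in peak 3 and 1 in peak 4 at 17.5 bp. GA repeats were in 2 of the 4, against 8.86%, and the E-box was in 1, against 11.8%. These counts depend on the width searched, since within 50 bp of the summit GATA sites were in 1 peak, GA repeats in 1 and the E-box in 0. With the whole peak searched, the AP-1 site was in 1 *jun-1* peak, the partial CRE in 2 and the PAR type site TTACGTAA in 1. The word ACGCAG was in 3 of the 4, peak 1 at 5.5 bp from the summit, peak 2 with 3 copies and peak 4 with 1, against 17.7% of IDR peaks, 7.54% of relaxed pooled peaks and 6.03% of windows at 5′ ends. The word was added to the motifs after the data had been seen. Its shares at *jun-1* are therefore a description of these peaks and support nothing about the word. The C/EBP palindrome TTGCGCAA, the PAR type site and the scrambled word TCAGATGC were found within 100 bp of none of the 5 summits. Over all IDR peaks the palindrome was at 0.623%, the PAR type site at 0.223% and the scrambled word at 0.312%. A match to any of these words is a description of the sequence, not a binding site shown by itself.

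**Figure D3:**
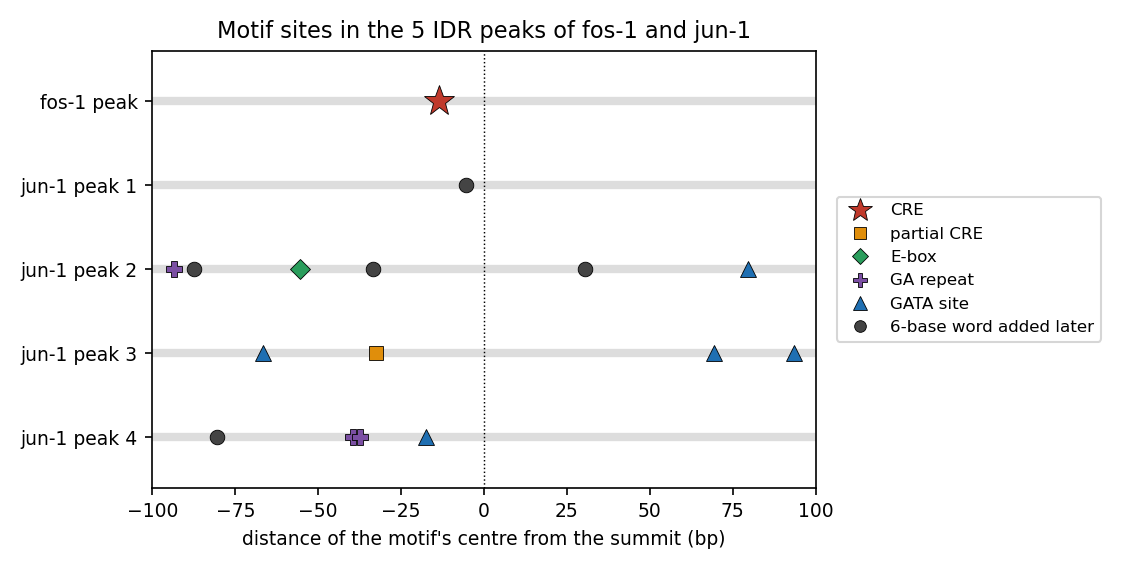
Positions of motif sites relative to the summit (horizontal, in bp) in the *fos-1* peak, the top line, and the 4 *jun-1* peaks below it, each symbol being 1 site. The partial CREs within the CRE of *fos-1* and the shorter CREB core are left out. The *fos-1* peak carries the CRE alone, 13.5 bp from the summit, and no *jun-1* peak carries one.

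The CRE and AP-1 sites away from the IDR peaks were also located. The *jun-1* span holds 2 CREs, one 248 bp and the other 344 bp from the nearest relaxed pooled summit, so neither lay at a peak. Over the genome, 4.36% of 6026 CREs lay within 100 bp of an IDR summit and 26.1% within 100 bp of a relaxed pooled summit. The AP-1 site was more frequent around both genes than around most others. The span of *fos-1* held 8 AP-1 sites, 3.56 per 10 kb, a density reached by 1.73% of protein-coding genes. The span of *jun-1* held 9, 3.10 per 10 kb, reached by 3.10% of genes, while the median gene had 0.836 per 10 kb. None of these sites lay within 100 bp of an IDR summit, and over the genome 0.678% of 9580 AP-1 sites did.

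At *fos-1*, 3 of the AP-1 sites lie close together in an intron, 8676 to 8776 bp from the first 5′ end. The nearest relaxed pooled summit was 1173 bp or more from each of them, and replicate 3 alone had a weak peak 8928 bp from the 5′ end (signal 19.3921, rank 24422). A different *fos-1* site, at V:6000680-6000686, is 9 bp from the summit of a weak relaxed peak (signal 36.572, rank 16844 of 30000) on the flank of the strong IDR peak. At *jun-1*, 5 of the 9 AP-1 sites (55.6%) lay within 100 bp of a relaxed pooled summit, against 1 of 8 (12.5%) at *fos-1* and 7.56% over the genome. Relaxed pooled peaks covered 35.52% of the *jun-1* span and 22.59% of the *fos-1* span, against 11.95% of the genome. A site anywhere in these spans is thus more often near a summit than over the genome. The shares are not corrected for this, so they do not show a link between a motif and the peaks. Some other motifs of the *jun-1* span also had shares above the genome's, but not all. Near relaxed pooled summits were 3 of its 4 E-boxes (75%), against 11% over the genome, and 27.3% of its GATA sites, against 6.81%. The share was 25% for the CREB core, against 10.3%. For the word ACGCAG it was 71.4%, against 12.1%, but the word was added after these peaks had been seen. Its 5 sites near a relaxed pooled summit are those at the IDR summits, so this share supports nothing about the word. The share was near or below the genome's for the partial CRE (12.5%, against 14%), the GA repeat (25%, against 21.4%) and the CRE (0 of 2, against 26.1%). Motifs with 1 site in the span are left out. Of the 5 AP-1 sites of *jun-1* near a summit, 4 lay at peaks below the pooled median of 39.12, with signals of 36.5459, 32.1203 and 25.9323, the last of them shared by 2 sites. The strongest of the peaks with an AP-1 site had a pooled signal of 82.7477 (rank 3456), with its summit 32 bp from the site and 33 bp upstream of the 5′ end of T24H10.7b.1. The sequences of the *fos-1* cluster (chrV:6012264-6012390) and of this *jun-1* site (chrII:9116509-9116595), plus strand of ce11, show the AP-1 site in capitals, which in the *jun-1* stretch is on the minus strand.
fos-1 intron: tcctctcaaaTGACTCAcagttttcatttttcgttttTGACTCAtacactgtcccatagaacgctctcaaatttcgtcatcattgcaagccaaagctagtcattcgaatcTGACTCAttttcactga
jun-1 isoform b: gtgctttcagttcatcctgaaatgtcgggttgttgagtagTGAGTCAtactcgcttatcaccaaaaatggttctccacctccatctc

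The relaxed lists hold many weak peaks, which the authors called as input for the IDR comparison, and relaxed pooled peaks cover 11.95% of the genome. They are therefore read only against that background. The *fos-1* span held 14 relaxed peaks of the pooled reads, 12 of replicate 2 and 9 of replicate 3. The *jun-1* span held 26 of the pooled reads, 26 of replicate 2 and 24 of replicate 3. Per kb of span, *fos-1* had 0.623 and *jun-1* 0.894 relaxed pooled peaks, against a median of 0.263 over all protein-coding genes. The density at *fos-1* was above that of 87.9% of genes and the density at *jun-1* above that of 97.2%. In replicate 2 the density was above that of 86.8% of genes for *fos-1* and of 98.5% for *jun-1*. In replicate 3 these shares were 69.5% for *fos-1* and 95.9% for *jun-1*. Relaxed pooled peaks covered 22.59% of the *fos-1* span and 35.52% of the *jun-1* span. At least 1 such peak was found for 82.1% of genes, so the presence of relaxed peaks says little, and their density places *jun-1* high in all 3 lists.

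**Figure D4:**
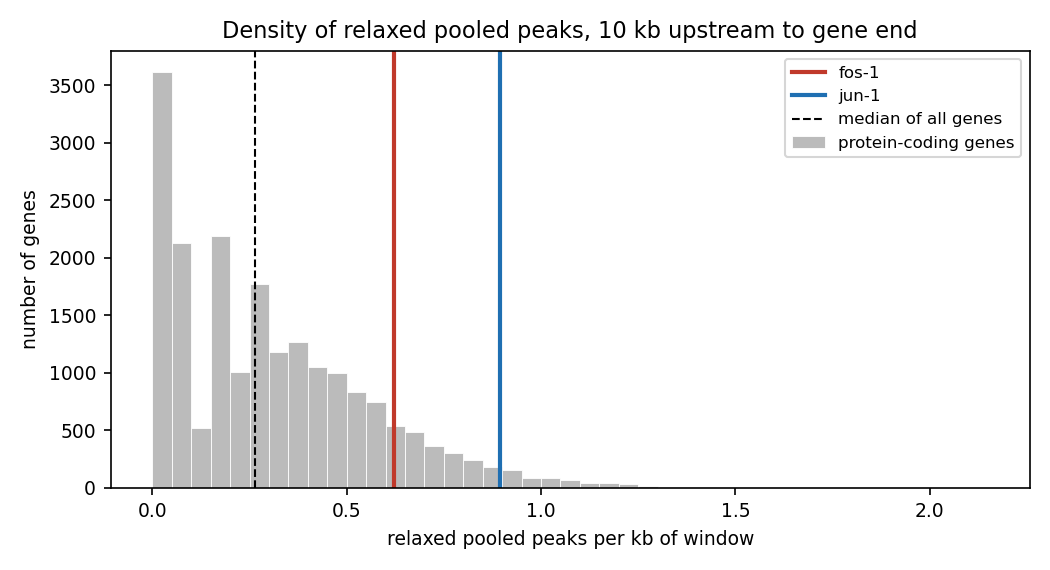
Number of protein-coding genes (vertical) by their density of relaxed pooled peaks per kb (horizontal), from 10 kb upstream of the 5′ end to the gene end, with *fos-1* in red, *jun-1* in blue and the median of all genes dashed. Both genes lie to the right of the median of 0.263, *jun-1* farther than *fos-1*.

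Apart from the IDR peak, the relaxed peaks of *fos-1* were weak. The 9 pooled peaks within the gene had signals of 25.52 to 76.86, with a median of 35.53, and 6 of all 14, the IDR peak included, were above the median of the pooled list, 39.12. The strongest of them lay in the 3′ UTR, 12172 bp from the 5′ end (pooled signal 76.8642, rank 4015; replicate 2 signal 29.9028, rank 5644; replicate 3 signal 58.0343, rank 2989). The 3′ end of *fos-1* overlaps that of the convergent gene *rpt-2*, a proteasome ATPase gene, whose 5′ end is 1896 bp from this summit. In replicate 3 the summit was 12204 bp from the 5′ end, in the small nucleolar RNA gene F29G9.19, where the pooled summit did not lie. At *jun-1*, 20 pooled peaks lay within the gene, with signals of 24.69 to 138.5 and a median of 52.47, and 18 of all 26 (69.23%) were above the median of the pooled list. By annotation, the *jun-1* summits were 16 in introns, 4 in coding exons, 4 in intergenic sequence and 2 in 5′ UTRs. Of these, the coding exons of 2 summits belong to *dnj-23* and T24H10.4, and 1 summit in a 5′ UTR is that of C16D2.1, which overlaps *jun-1*. The *fos-1* summits were 3 in introns, 3 in coding exons, 4 in intergenic sequence, 2 in 5′ UTRs and 2 in 3′ UTRs, with 1 of the coding exons in *cpg-4*.

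The replicates shared only some of these peaks. At *fos-1*, 10 of the 14 pooled peaks had a summit of replicate 2 within 100 bp, 8 had one of replicate 3, 6 had both and 2 had neither. At *jun-1*, 18 of 26 had one of replicate 2, 18 one of replicate 3, 13 both and 3 neither. Over all relaxed pooled peaks, 52.3% had a summit of replicate 2, 66.9% one of replicate 3 and 32.6% both. Both genes had a larger share with both replicates than the list as a whole. For replicate 3 alone, the share at *fos-1*, 8 of 14, was below that of the list. The share at *jun-1*, 18 of 26, was near it. Peaks were not matched by signal for these comparisons, and no difference was tested. Neighbouring summits about 200 bp apart share much of their span, and with overlapping peaks merged *fos-1* had 10 relaxed pooled peaks and *jun-1* 21, a count added after the data had been seen.

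**Figure D5:**
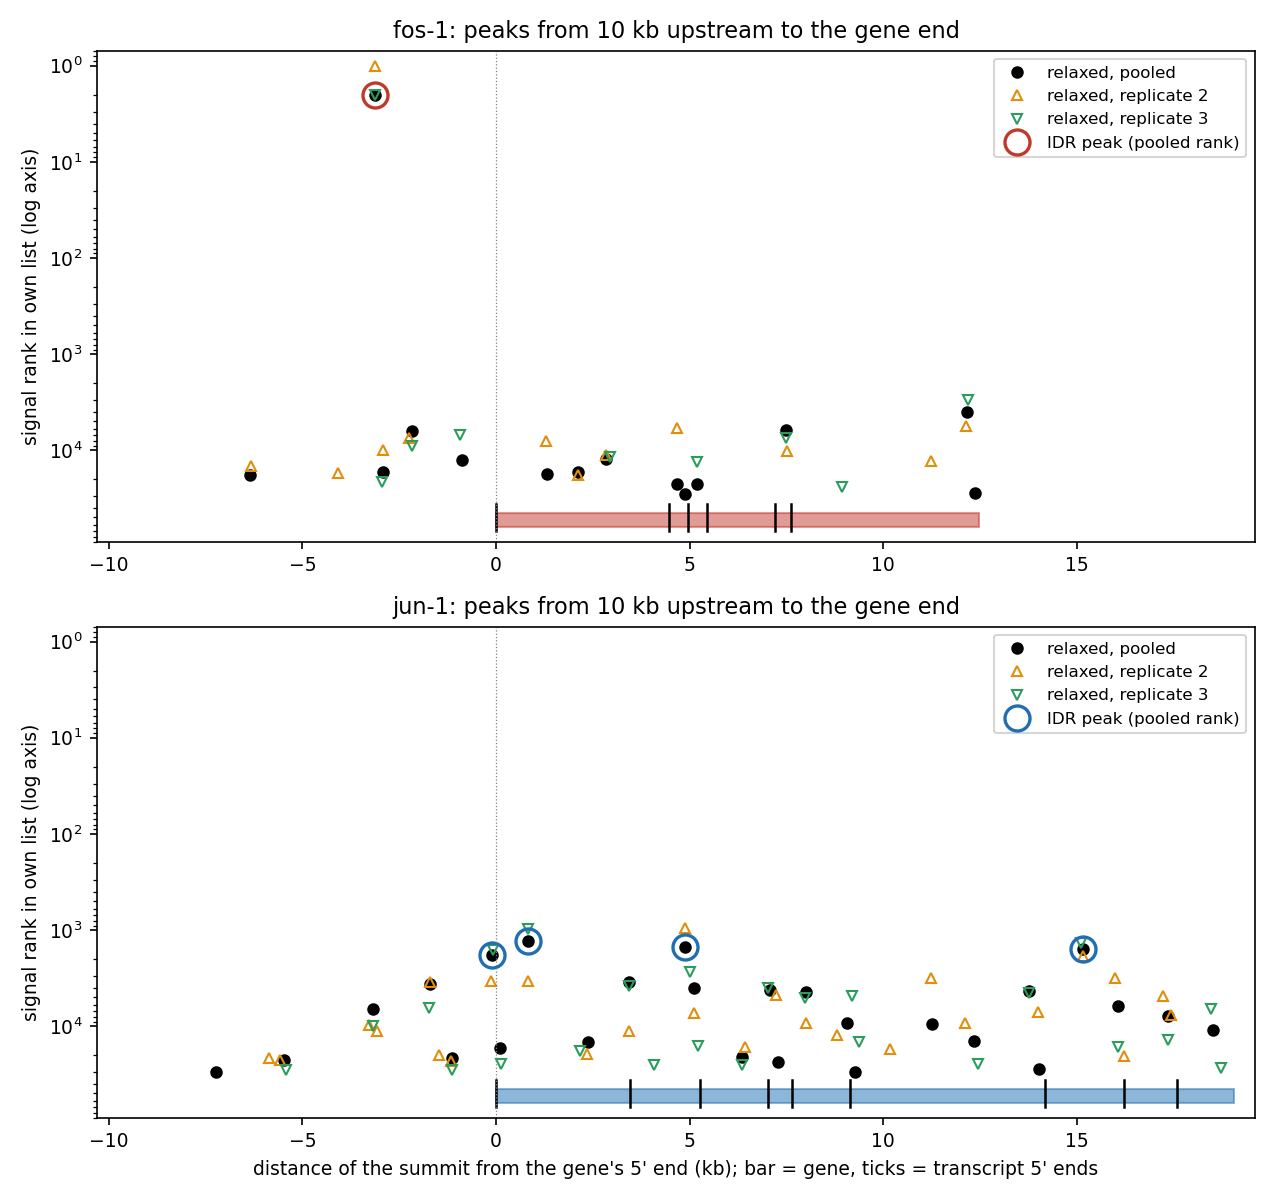
All peaks of *fos-1* (upper panel) and *jun-1* (lower panel) by the distance of the summit from the gene's 5′ end (horizontal, in kb) and their signal rank within the own list (vertical, log axis, rank 1 at the top). Filled circles are relaxed pooled peaks, triangles the replicates, open rings the IDR peaks, the bar the gene and the ticks its transcript 5′ ends. The *fos-1* peak stands alone at the top 3127 bp upstream, and the *jun-1* peaks lie along the whole gene, the best pooled rank among them being 1288.

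Peaks were also set out by transcript, since both genes start at several positions. Both genes had at least 1 relaxed pooled summit in a promoter, as had 37.6% of protein-coding genes. None of the 6 *fos-1* 5′ ends had an IDR summit in its promoter, and 4 had a relaxed pooled one. The first 5′ end, of F29G9.4a.1, had a relaxed peak 878 bp upstream (pooled signal 43.0462, rank 12569), seen in replicate 3 (38.4454, rank 6943) and not in replicate 2. F29G9.4b.1 and F29G9.4a.3 shared a peak that was weak in the pooled reads (signal 30.735, rank 22387), 279 bp upstream of F29G9.4b.1. In replicate 2 it was the strongest *fos-1* promoter peak (29.4768, rank 5845). The last 5′ end, of F29G9.4a.5, had the strongest *fos-1* promoter peak of the pooled reads 107 bp upstream (62.2287, rank 6100; replicate 2 23.3738, rank 10240; replicate 3 36.8647, rank 7545), in a coding exon of the longer transcripts. In replicate 3 the peak of F29G9.4a.1 was stronger. F29G9.4a.2 and F29G9.4a.4 had none in any list. An antisense RNA gene, *anr-32* (V:6003575-6006746), overlaps the first part of *fos-1*, and 3 of the relaxed intronic peaks lie within it.

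All 9 *jun-1* 5′ ends had a relaxed pooled summit in their promoter, against 37.5% of the 29314 distinct 5′ ends of protein-coding transcripts. IDR summits were at 2 of the 9, those of T24H10.7a.1 and T24H10.7f.1, against 6.03%. The promoters of a gene with closely spaced 5′ ends overlap, so 1 peak can count for several: the peak at 7090 bp (pooled signal 74.8211, rank 4237) lay 57 bp downstream of the 5′ end of T24H10.7h.1 and 559 bp upstream of that of T24H10.7i.1. The pooled signals at the remaining 5′ ends were 82.7477 for T24H10.7b.1, 50.3717 for T24H10.7g.1, 73.9313 for T24H10.7d.1, 61.8754 for T24H10.7e.1 and 54.5585 for T24H10.7c.1. All of these were above the median of the pooled list, 39.12, and below the lowest signal in the IDR list, 104.6. The strongest relaxed pooled peak of the *jun-1* span outside the IDR list and outside promoters lay 1701 bp upstream (80.1507, rank 3686).

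Binding at promoters was also compared within the bZIP family. Of 28 bZIP genes found in the annotation, *fos-1* and *jun-1* included, 16 (57.14%) had an IDR summit in a promoter, against 6.23% of all protein-coding genes. *jun-1* was among these 16 and *fos-1* was not. With the longer span from 10 kb upstream to the gene end, 22 of the 28 (78.57%) had an IDR summit, against 22.2% of all genes, with no correction for length. The *fos-1* peak was the strongest among them. The next were *xbp-1* (707.8), a regulator of the endoplasmic reticulum stress response, *atf-4* (628.0) and *atf-7* itself (603.5). The worms also carry the ATF-7 transgene, and whether it affects the peaks at *atf-7* was not tested.

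The bZIP genes were ordered by their likeness to each of the 2, from the rank percentile of their strongest promoter peak in the 3 relaxed lists. The percentiles of *fos-1* were 79.67 for the pooled reads, 79.22 for replicate 2 and 76.86 for replicate 3, since its distal peak does not count here. By this measure no bZIP gene was close to it. The least distant were *zip-11* (Euclidean distance 24.81), *crh-2* (25.13) and *zip-1* (26.19), and all 3 were nearer to *jun-1*, at 6.971 for *zip-11*, 14.04 for *crh-2* and 6.279 for *zip-1*. The percentiles of *jun-1* were 95.04 for the pooled reads, 96.65 for replicate 2 and 94.63 for replicate 3. They came from its peak 3 in the pooled reads and replicate 2, and from its peak 1 in replicate 3. Nearest to *jun-1* were *atf-4* (2.465), *atf-6* (3.843) and *let-607* (4.447), whose human relatives act in stress responses of the endoplasmic reticulum or the cytosol.

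Genes linked to Fos and Jun proteins, in *C. elegans* or in mammals, were counted in the same way. Of 15 genes of the JNK and ERK kinase pathways, which phosphorylate Fos and Jun proteins in mammals, 2 (13.33%) had an IDR summit in a promoter, against 6.23% of all genes. These were the MAP kinase phosphatase gene *vhp-1*, with a summit 939 bp upstream (signal 122.059, rank 1674), and *ksr-2*, a scaffold of the Ras and ERK pathway, with a summit 209 bp upstream (signal 320.691, rank 182) and 2 CREs within 100 bp. The longer span, from 10 kb upstream to the gene end, held an IDR summit for 8 of the 15 (53.33%), against 22.2% of all genes, counts that are again not corrected for length. The span of *vhp-1* held 6 IDR summits with signals up to 671.9. Of 6 genes that require FOS-1 for their expression or have been placed downstream of it, none had a promoter peak. For the phospholipase gene *plc-1* the nearest IDR summit was 8814 bp away, for the metalloprotease gene *zmp-1* 7769 bp, for the hemicentin gene *him-4* 9077 bp, for *mig-10*, which encodes an adaptor protein of cell migration, 7370 bp, for *egl-43*, a zinc finger factor, 14583 bp and for the cadherin gene *cdh-3* 25663 bp. The longer span held an IDR summit for 3 of the 6 (50%), against 22.2% of all genes, again not corrected for length and with few genes. These were *zmp-1* (signal 178.7), *him-4* (265.9) and *plc-1* (125.0). None of 6 regulators that act with *fos-1* in the anchor cell had a promoter peak either, *egl-43* being in both lists. In the longer span 1 of them (16.67%), *lin-29*, had an IDR summit (signal 155.5), against 22.2% of all genes. With 6.23% of all genes bound at a promoter, 0 of 6 is near the background, and 2 of 15 is not far from it.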

How the data were processed

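ATF-7 ChIP-seq peaks of 2 biological replicates were analysed. According to the labels and the deposited listings, the authors mapped reads to ce11 and called relaxed peaks, both by replicate and for the pooled reads, with a control as background. The IDR list was derived from these. Not given in the sources used here are aligner, caller and IDR threshold. Each peak's deposited signal is the authors' own value against that control. It served only to rank and describe peaks within a list, or between the IDR and relaxed pooled lists. The authors' −log10 q is at its maximum in all IDR peaks and ranks none of them. Read depth is unknown, so no value carries a depth-based limit. The control, the lists in ce10 and sequences of proteins were not used here.

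Summits were joined to the WBcel235 genome, the assembly of ce11, and its Ensembl release 115 annotation with Python 3.11.15, NumPy 2.4.6 and pandas 2.3.3, and plotted with matplotlib 3.10.9. Coordinates count from 1. Motifs (11 in all, both strands) were searched within 100 bp of a summit. Besides those described with the results they were the CREB core TGACG, which is part of the CRE, the C/EBP palindrome TTGCGCAA, the PAR type TTACGTAA and a scramble TCAGATGC, none of the last 3 being found within 100 bp of the 5 IDR summits. The steps were checked on simulated data. No test was made, since there is 1 group.

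The members, motifs and gene lists were chosen with earlier results of these data known, and the word ACGCAG and the merging of overlapping peaks were added after the data were seen. The genes named are *fos-1* and *jun-1*, neighbours of their peaks, pathway genes with an IDR promoter peak, 5 named FOS-1 targets whether bound or not, and the 3 most similar bZIP genes. The genes with the next strongest bZIP peaks (*xbp-1*, *atf-4*, *atf-7*), *mig-10* and *lin-29* were named after their values were seen. Alternatives were other spans, promoters, distances, motif windows and the stronger 50% of each list, and single replicates in place of the IDR or pooled list.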

Additional observations from a re-analysis of the deposited data

How the results depend on the processing

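The *fos-1* IDR peak was found under every alternative span, overlap rule, list strength and single replicate. With the stronger 50% of each list, *jun-1* kept 0 of its IDR peaks and 18 of its relaxed peaks, *fos-1* had 6 relaxed peaks, 9 bZIP genes had a promoter peak and 1 gene of the JNK and ERK pathways did. Among as many of the strongest peaks of a single replicate as there are IDR peaks, *jun-1* had 2 to 3, and *fos-1* had 9 to 12 relaxed peaks in the replicate lists. With promoters of 500 bp to each side, 1 gene of the JNK and ERK pathways was bound. With summits within 50 bp, 7 *jun-1* peaks had both replicates, against 13 within 100 bp. With the whole peak searched, 3 *jun-1* peaks held the CREB core, and the counts of the other motifs that moved with the width searched are given with the results. In all, 76 of 94 alternatives stayed within 1.5 times the value given above. This tally includes counts of 0 that stayed at 0, as for the C/EBP palindrome and the FOS-1 targets. It also includes the CREB core at *fos-1*, which lies inside the CRE. It is therefore not a measure of how stable the counts are. No paired analysis was possible because there is 1 group. Depth is unknown, peaks of a control strain were not analysed here, and 2 replicates of 1 line give no estimate of the spread between lines or stages.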
